A study of Mus musculus with 16 samples.

Results

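The replication-dependent histone genes encode the linker histone H1 and the core histones H2A, H2B, H3 and H4 that package newly copied DNA, and they are transcribed mainly in S phase. They lie in clusters, mostly have no introns in their coding sequence and carry many near-identical copies. Their transcription is coordinated by Npat, a substrate of the cyclin E and Cdk2 kinase, and their transcripts end in a stem-loop bound by Slbp in place of a poly(A) tail. Members were taken as the protein-coding genes of GENCODE M21 on chromosomes 13, 3, 11 and 6 of mm10 with a symbol starting Hist1h, Hist2h, Hist3h or Hist4h, which gave 67 of 21938 protein-coding genes. The Hist1 cluster on chromosome 13 held 54 of them, Hist2 on chromosome 3 held 10, Hist3 on chromosome 11 held 2 and Hist4 on chromosome 6 held 1. By class there were 6 H1, 18 H2A, 18 H2B, 12 H3 and 13 H4 genes.

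Accessible chromatin was mapped by ATAC-Seq, which reads out the DNA that the Tn5 transposase can reach. The 16 libraries came from bone marrow HSPCs of mice, the hematopoietic stem and progenitor cells, obtained by sorting. The 4 genotypes, with 4 libraries each, were WT (Ep300 fl/fl), P300KO (Mx1-Cre;Ep300 fl/fl), TET2KO (Ep300 fl/fl;Tet2-/-) and P300KO_TET2KO (Mx1-Cre;Ep300 fl/fl;Tet2-/-). All groups carried the floxed Ep300 allele, which encodes the acetyltransferase p300, and by the methods of the study all received poly(I:C) in 3 doses starting at an age of 6 to 8 weeks, which in carriers of the interferon-inducible Mx1-Cre deletes Ep300. The labels give no age and no time after poly(I:C) for the ATAC-Seq libraries. Each library came from the HSPCs of 2 mice pooled, so p-values measure the spread between pools, and Mx1-Cre is not restricted to HSPCs.

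Each library's list held between 86039 and 137335 peaks, and read depth cannot be read from the lists. Replicates 1 and 2 of every genotype (deposit set 1) had 86039 to 110055 peaks and replicates 3 and 4 (deposit set 2) 130610 to 137335, and the WT replicates 1 and 2 were the weakest lists, with 45.0% and 63.2% of peaks at a −log10 q of at least 2 against 71.3% to 97.4% elsewhere. The sets are named in the labels only through the merged peak file a library belongs to. Of the 13 stem and progenitor markers chosen, 12 had a promoter peak in all libraries, among them Kit, Flt3 and Hlf, while Ly6a had one in 15. Of 5 T cell markers none and of 4 B cell markers only Pax5 had one in all libraries. All 4 erythroid markers did, Hbb-bs at a mean percentile of 40.8, as did Itgam alone of 5 granulocyte and monocyte markers, none of 3 liver markers and all 3 neuronal markers. Promoters of Ep300 and Tet2 were open in 16 libraries, which says nothing of the deletions.

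A promoter was called open in a library when a peak lay within 1 kb of a start, and the strength of a peak was its percentile within its own list by −log10 p, 100 being the strongest. Histone promoters were open almost throughout. The same 63 of 67 histone genes (94.0%) had a promoter peak in each of the 16 libraries, against 61.6% of all protein-coding genes, and the other 4 genes had none in any library. No histone promoter was open in some libraries and closed in others, so the number of open histone promoters was 63 in every library of every genotype. Over the same libraries, the number of protein-coding genes with an open promoter ranged from 14509 to 15770. These counts include peaks down to a −log10 p of about 2.00, the lowest in the lists. Hist3h2ba was counted as open in WT replicates 1 and 2 at 2.71 and 2.12, close to that floor. With peaks of a −log10 q of at least 2, the mean number of open histone genes was lower in WT than in P300KO and TET2KO.

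The 4 genes without a promoter peak were Hist1h1t, Hist1h2aa, Hist1h2ba and Hist1h1d. The first 3 encode the testis histones H1t, TH2A and TH2B, which are made in the male germ line. Hist1h2aa and Hist1h2ba are divergent neighbours at the end of the Hist1 cluster, and in the median library the nearest peak was 16550 bp and 16856 bp from their starts. Hist1h1t lies between open histone promoters, and its nearest peak, 1636 to 1683 bp away, was that of Hist1h4c. Hist1h1d, which encodes the somatic linker histone H1.3, is a matter of annotation. Its GENCODE start lies at position 23553262 of chromosome 13, 1770 bp from the RefSeq start at 23555032. At the RefSeq start a peak was present in 16 of 16 libraries at a mean percentile of 85.0, from 81.0 to 90.03. Annotation also bears on Hist1h2be, counted as open. Its GENCODE starts, 23621094 and 23621124, lie at the peak of Hist1h1e, so its percentiles are those of Hist1h1e. RefSeq gives a start at 23585970, and with RefSeq starts Hist1h2be had a peak in 16 of 16 libraries at a mean percentile of 94.4.

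To show what these promoters hold, the bases before the RefSeq start are printed for the highest ranked divergent H2A and H2B pair, for the highest ranked H1, H3 and H4 genes and for the H1 genes without a peak at their GENCODE start. All are 5′ to 3′ on the strand of the gene, in GRCm38.p6, as given by RefSeq, and the pair is on the plus strand, which is that of Hist1h2bk. Capitals mark the motifs searched for on either strand. The letters TATAAA make up the core of the classical promoter box of that name. The letters CCAAT are those bound by the nuclear factor Y complex. The letters TTTGCAT form part of the octamer of H2B promoters, which Pou2f1 binds. The letters AAACACA make up the H1 box. The letters CGTCCGC were searched for as a site of Hinfp, which binds an element of H4 promoters. No motif contains another. Between the starts of Hist1h2ah and Hist1h2bk lie 177 bases, chr13:22035644-22035820, which serve both genes.
Hist1h2ah and Hist1h2bk: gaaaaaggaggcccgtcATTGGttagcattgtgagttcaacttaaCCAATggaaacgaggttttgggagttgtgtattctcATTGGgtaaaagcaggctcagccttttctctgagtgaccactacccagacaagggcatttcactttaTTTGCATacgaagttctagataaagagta
For the other genes the 150 bases before the start are chr13:23738657-23738806 for Hist1h1c, chr3:96239128-96239277 on the minus strand for Hist2h3c2, chr13:23698459-23698608 on the minus strand for Hist1h4c, chr13:23554882-23555031 for Hist1h1d and chr13:23695661-23695810 for Hist1h1t, the last added after its values were seen.
Hist1h1c: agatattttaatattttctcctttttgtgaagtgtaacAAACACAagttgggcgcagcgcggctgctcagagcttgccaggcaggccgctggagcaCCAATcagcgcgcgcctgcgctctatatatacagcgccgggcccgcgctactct
Hist2h3c2: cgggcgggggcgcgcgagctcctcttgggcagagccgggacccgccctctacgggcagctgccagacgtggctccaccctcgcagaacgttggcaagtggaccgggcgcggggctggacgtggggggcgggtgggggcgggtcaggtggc
Hist1h4c: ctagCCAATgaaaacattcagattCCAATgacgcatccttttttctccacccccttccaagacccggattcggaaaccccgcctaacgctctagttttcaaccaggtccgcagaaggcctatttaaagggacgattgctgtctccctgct
Hist1h1d: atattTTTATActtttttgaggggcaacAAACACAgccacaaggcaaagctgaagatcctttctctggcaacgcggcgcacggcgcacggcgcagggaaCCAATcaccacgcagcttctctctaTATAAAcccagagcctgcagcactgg
Hist1h1t: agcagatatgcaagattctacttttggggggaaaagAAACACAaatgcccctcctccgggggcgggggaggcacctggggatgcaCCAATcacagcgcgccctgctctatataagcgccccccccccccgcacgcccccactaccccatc
The closed Hist1h1t promoter holds the same AAACACA and CCAAT letters as the open Hist1h1c and Hist1h1d promoters, in the same order.

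Over a window from 250 bases before to 50 after the start, 63 RefSeq promoters of 62 histone genes could be searched, with 20381 promoters of all protein-coding genes beside them. CCAAT was held by 85.7% of the histone promoters against 38.1% of all, by every H1, H2A, H2B and H3 promoter searched and by 3 of 12 H4 promoters. TATAAA was held by 55.6% against 12.4%. TTTGCAT was held by 41.2% of H2B and 38.9% of H2A promoters against 4.15% of all, and no H1 or H3 promoter held it. In divergent H2A and H2B pairs 175 to 301 bases lay between the GENCODE starts, so 1 run of letters can count for both genes. The H2A and H2B shares are therefore not independent. AAACACA was held by 5 of 6 H1 promoters, 83.3% against 6.09% of all, and by no H3 or H4 promoter. CGTCCGC was held by 1 of 63 histone promoters, that of an H2A gene, by 0 of 12 H4 promoters and by 3.77% of all. A search for these exact letters cannot tell whether H4 promoters hold the element that Hinfp binds. The median GC content was 45.3% in the histone promoters and 57.0% in all, and the median ratio of observed to expected CpG was 0.746 and 0.589. A match is a run of letters and not a bound site.

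The open histone promoters ranked high within their lists, and their level was close to that of open promoters in general. The mean percentile over 16 libraries had a median of 93.6 over the 63 open histone genes and of 93.6 over the 13519 protein-coding genes open in all libraries, with quartiles of 91.2 and 94.6 for the histone genes against 86.3 and 97.2. A mean percentile of at least 90 was reached by 52 of 63 histone genes (82.5%) and by 65.3% of all. By class, the median of the mean percentiles was 92.2 in H1, 94.2 in H2A, 94.1 in H2B, 93.0 in H3 and 90.7 in H4. By cluster it was 93.1 in Hist1 and 96.3 in Hist2.

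**Figure D1:**
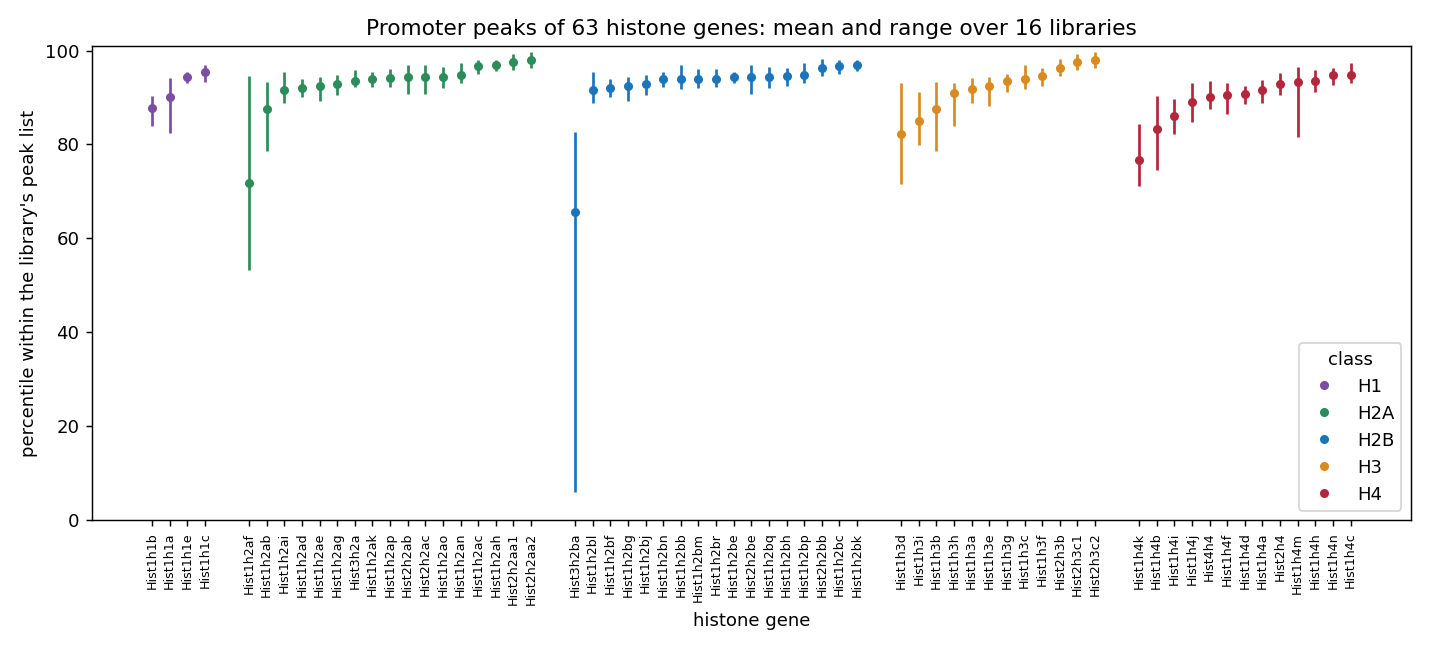
Percentile of the strongest promoter peak of each of the 63 histone genes with a peak in all libraries, by class. The points are means over 16 libraries, the lines run from the lowest to the highest library, and the y axis is the percentile within a library's own list by −log10 p. Most genes sit above 90 with short lines, and Hist3h2ba, Hist1h2af and Hist1h4k stand lowest.

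Hist2h2aa2 with Hist2h3c2 ranked highest, at a mean percentile of 97.99 ± 0.968 (SD over 16 libraries). These are an H2A and an H3 gene that share 1 peak on chromosome 3, and their copies Hist2h2aa1 and Hist2h3c1 followed at 97.7 ± 0.790. Hist1h2ah with Hist1h2bk, the pair printed above, had 96.9 ± 0.665 and was the highest H2B gene. The highest H1 gene was Hist1h1c, which encodes H1.2, at 95.4 ± 1.02, and the highest H4 gene Hist1h4c at 94.7 ± 0.999. The first 2 regions differed by less than their SD.

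The lowest members of each class had larger SDs than the highest, on a scale whose top is capped at 100. Hist1h1b, which encodes H1.5, was the lowest H1 gene at 87.7 ± 1.71. Hist1h4k was the lowest H4 gene at 76.6 ± 4.35 and Hist1h3d the lowest H3 gene at 82.2 ± 7.32. In WT replicate 2, TET2KO replicate 4 and P300KO_TET2KO replicates 2 to 4 the Hist1h3d value was that of the neighbouring Hist1h2ad and Hist1h2bf peak. The Hist1h3d region itself lay between 71.5 and 82.5 in all libraries. Hist1h2af was the lowest H2A gene at 71.7 ± 10.8, from 53.3 to 94.6. Its own peak was narrow, with a median width of 265 bp, and the high values came from libraries in which the peak of the neighbouring Hist1h3g reached within 1 kb of its start. Hist3h2ba was the lowest H2B gene at 65.6 ± 23.2, from 5.89 to 82.7.

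Many of these promoters could not be read one gene at a time. The peaks of the 16 lists, merged where they shared at least 1 bp, gave 48 histone promoter regions of 26185 promoter regions, and 41 of the 48 had a peak in all libraries. A region touched 1 histone gene in 25 cases, 2 in 17 and 3 in 6, and 46 genes shared a region with another histone gene. The open genes included 11 divergent pairs of an H2A and an H2B gene with starts within 1 kb. Sequence copies add a further limit. All 100-mers within 1 kb of the starts of Hist1h2ao, Hist1h2ap, Hist1h2bq and Hist1h2br occur elsewhere in the genome, as do 84.9% around Hist1h4m, 80.7% around Hist1h4n, 71.7% around Hist2h3c2 and 72.7% around Hist2h3c1. These genes nevertheless had peaks in 16 of 16 libraries, and how reads were divided between the copies cannot be told from the lists.

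The position of the peaks differed by class. A summit lay within 300 bp of the start in all 16 libraries for 62 of 63 open histone genes and for 91.6% of all open protein-coding genes. The exception was Hist1h3f, with such a summit in 9 libraries. Among genes with a single annotated start, the median summit position was −74.0 bp in 59 histone genes and −28.0 bp in 4003 protein-coding genes. It lay at least 60 bp upstream in 59.3% of these histone genes against 30.2% of all. The H2A and H2B genes, most of which share a divergent promoter, had medians of −89.0 and −125 bp relative to the start, H3 genes −58.5 bp, H4 genes −49.0 bp and the 4 H1 genes −11.8 bp. These are descriptions of 1 set of genes and were not tested.

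**Figure D2:**
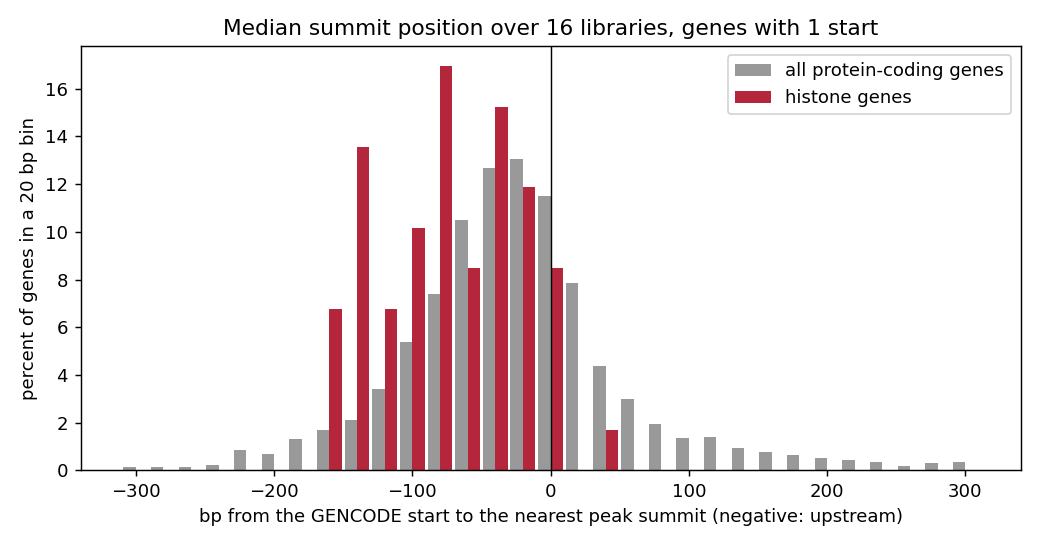
Distance from the start to the nearest peak summit, as the median over 16 libraries, for genes with 1 GENCODE start and a promoter peak in all libraries. The y axis is the percent of genes in bins of 20 bp, with negative distances upstream. The 59 histone genes spread further upstream, with a median of −74.0 bp, than the 4003 protein-coding genes, with a median of −28.0 bp.

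The peaks were wide and of modest height. The peak over a histone start had a median width of 1138 bp against 958 bp over all open genes. It reached 1733 bp in the H1 class. Its fold enrichment, the authors' ratio of signal to local background, had a median of 9.57 against 15.0. So by fold the histone promoters stood lower than open promoters in general, while by −log10 p they stood level. A mean of at least 90% of the coding sequence lay under peaks in 29 of 60 histone genes with an uninterrupted coding sequence (48.3%), and in 39.4% of 254 open genes with an uninterrupted coding sequence of like length, 309 to 669 bp.

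The clusters were open at the histone genes and at scattered neighbours. Along chromosome 13 the histone genes fell into 4 blocks separated by over 100 kb. Block 1 (122 kb, 18 genes) and block 2 (8.51 kb, 5 genes) were open throughout, block 3 (233 kb) in 27 of 29 genes and block 4, the pair of testis genes (1.08 kb), in none. Inside the span lie 36 vomeronasal receptor genes (Vmn1r), which are used in sensory neurons, and 32 had no promoter peak in any library while 4 had one in a single library. Of the 13 other protein-coding genes inside the chromosome 13 span, 10 were open in all libraries, among them Zfp322a at a mean percentile of 98.1 and Hfe, the iron regulator next to Hist1h4c, at 79.5. Slc17a2 and Slc17a3 had no peak in any library.

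The first comparison asked what p300 loss did in the Tet2-deficient background, where the study followed the proliferation of HSPCs. The median percentile of the 63 open histone genes in P300KO_TET2KO libraries was 93.5, 92.2, 93.7 and 93.7 in replicates 1 to 4, and in TET2KO libraries it was 92.7, 92.7, 94.5 and 93.0. The groups overlapped. In limma, with the deposit set as a covariate and Benjamini-Hochberg adjustment over 26185 promoter regions, 0 of 48 histone regions were called at an adjusted p under 0.05, and 0% of all regions were. At an unadjusted p under 0.05 the count was 1 of 48, against 4.72% of all, and that 1 was a second Hist4h4 region, whose presence among the regions fixed its direction. Among the 41 histone regions with a peak in all libraries the count was 0, from a fit of the 13998 promoter regions with a peak in all libraries. The median difference of the histone regions was 0 percentile points and that of all regions 0, and 23 histone regions were higher and 23 lower. The split was 37 higher and 11 lower without TET2KO replicate 3, and 39 higher and 7 lower with peaks of a −log10 q of at least 2, where the median was 0.74 points in the histone regions and 0.68 in all. Over the 41 regions with a peak in all libraries the differences ran from −4.46 to 3.42, with a median SE of 0.866 points, and 21 of the 41 were lower, against 41.7% of all such regions.

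The 3 histone regions named for this comparison, by the size of p in the fit, were a second Hist4h4 region, Hist1h3d and Hist1h4b. The second Hist4h4 region, 268 bp at chr6:136804718-136804985 upstream of the single H4 gene of chromosome 6, had a peak only in P300KO_TET2KO replicates 1 and 2, at percentiles of 27.1 and 21.1. It was missing from the other 14 libraries, including replicates 3 and 4 of the same genotype. It was among the regions only through these 2 peaks, and the other libraries were given percentile 0, so its difference is a description with no test. The main Hist4h4 region was at 90.1, 90.9, 89.4 and 88.5 in P300KO_TET2KO and at 89.6, 87.6, 91.1 and 89.7 in TET2KO.

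The strongest peak within 1 kb of the Hist1h3d start was at 71.5, 90.8, 92.4 and 91.1 in P300KO_TET2KO replicates 1 to 4. In TET2KO it was at 79.6, 77.9, 81.6 and 93.1. The values above 90 were those of the neighbouring Hist1h2ad and Hist1h2bf peak. The Hist1h3d region itself was at 71.5, 72.8, 77.9 and 73.7 in P300KO_TET2KO replicates 1 to 4 and at 79.6, 77.9, 81.6 and 74.7 in TET2KO. Within each deposit set the P300KO_TET2KO values were lower except that replicate 3 exceeded TET2KO replicate 4 (difference −4.46 ± 2.14 points (SE), unadjusted p = 0.0574, adjusted p = 1, limma). The Hist1h4b region was at 84.9, 84.1, 83.8 and 79.5 against 81.3, 78.7, 84.1 and 74.5 (difference 3.42 ± 2.04, unadjusted p = 0.118, adjusted p = 1, limma). The groups overlapped in both. The Hist1h4b difference was 5.45 without TET2KO replicate 3 and 1.97 without TET2KO replicate 4, and its sign turned by fold rank, at −3.62, and by fold rank among promoter regions, at −0.50.

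The second comparison asked what p300 loss did with Tet2 intact. The median percentile of the histone genes was 93.8, 93.5, 93.5 and 93.4 in P300KO and 94.1, 94.2, 93.9 and 93.4 in WT. Of the 48 regions 0 were called, against 0.0115% of all, and 2 had an unadjusted p under 0.05, against 9.36%. Without WT replicate 2 the latter count was 4, against 14.0% of all. The median difference was −0.45 points in the histone regions and −0.03 in all, and 36 histone regions were lower and 11 higher. The histone median was −0.69 without WT replicate 3, −0.81 with the strongest 50000 peaks and −0.88 in deposit set 1 alone against −0.30 in set 2. Of the 41 with a peak in all libraries, 34 were lower (82.9%), against 58.2% of all such regions. This direction did not hold when peaks were ranked among promoter regions alone, with 24 histone regions lower and 23 higher, or with peaks of a −log10 q of at least 2, with 10 lower and 37 higher. The split was 26 lower and 21 higher when a peak had to cover 50% of its region. With the −log10 q filter the median was 1.11 points in the histone regions and 1.19 in all.

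The smallest p belonged to the region of Hist1h2ai, Hist1h2bl and Hist1h3h, an H2A and H2B pair with an H3 gene at the left end of the Hist1 cluster. It was at 95.4, 93.0, 93.1 and 93.0 in WT replicates 1 to 4 and at 90.1, 91.3, 92.3 and 89.8 in P300KO. All 4 P300KO libraries were below all 4 WT libraries (difference −2.78 ± 0.874 points (SE), limma unadjusted p = 0.00716, adjusted p = 0.396). The direction turned, to 45.1 points, when a peak had to cover 50% of its region and libraries below that cover were given percentile 0. Within 1 kb of the Hist1h3h start WT replicate 1 was at 83.9, below every P300KO library. The Hist1h3h means were 90.8 in WT and 90.9 in P300KO. Hist1h3e was at 93.1, 93.0, 93.5 and 94.4 in WT and at 90.6, 88.3, 94.1 and 92.7 in P300KO, which overlapped (difference −2.09 ± 0.870, adjusted p = 0.484, limma). Without P300KO replicate 2 this difference was −1.13. Hist1h4f differed by 2.18 ± 1.10 (adjusted p = 0.532, limma), and by 1.38 without WT replicate 1 and 3.29 without WT replicate 2.

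The third comparison asked what Tet2 loss did with p300 intact. The histone median was 92.7, 92.7, 94.5 and 93.0 in TET2KO, and the WT values are those given above. No histone region of 48 was called, against 0% of all, and 7 had an unadjusted p under 0.05, against 7.11% of all. Without TET2KO replicate 3 that count was 14, against 6.89% of all, and without TET2KO replicate 4 it was 4, against 7.38%. With peaks of a −log10 q of at least 2 it was 2, against 8.51%. The median difference was −0.75 points in the histone regions and 0 in all, with 38 regions lower and 8 higher. Of the 41 with a peak in all libraries 35 were lower (85.4%), against 54.7% of all such regions. Ranked among promoter regions alone, 30 were lower and 16 higher (median −1.19 points), and the median was −1.30 with the strongest 50000 peaks. The direction was present in deposit set 1, with 40 regions lower and 5 higher (median −1.26 points), and not in deposit set 2, with 23 lower and 21 higher (median −0.01). When a peak had to cover 50% of its region, 25 were lower and 21 higher (median −0.14). With peaks of a −log10 q of at least 2 the direction turned, with 11 lower and 35 higher, and the median was 0.96 points in the histone regions and 1.88 in all. The WT libraries are shared with the comparison above, so these counts are not independent of it.

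The region of Hist2h2ab, Hist2h2ac and Hist2h2be, a divergent H2A and H2B pair with a further H2A gene, also holds the promoter of Bola1, which is no histone gene. It was at 96.9, 95.7, 95.2 and 95.9 in WT and at 93.9, 90.8, 94.5 and 93.6 in TET2KO. All TET2KO libraries were below all WT libraries (difference −2.71 ± 0.786 points (SE), limma unadjusted p = 0.00425, adjusted p = 0.609). In P300KO the same region was at 94.3, 96.3, 94.3 and 93.4 and in P300KO_TET2KO at 94.5, 93.2, 93.9 and 94.2, overlapping TET2KO. The Hist1h2ai region was at 90.4, 92.4, 92.4 and 88.9 in TET2KO, again below every WT library (difference −2.62 ± 0.874, adjusted p = 0.609, limma), and with 50% cover this difference likewise turned, to 67.7 points. Within 1 kb of the Hist1h3h start the means were 90.8 in WT and 91.0 in TET2KO, with WT replicate 1 at 83.9.

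Hist3h2ba, an H2B gene of the small chromosome 11 cluster, varied more than any other open member. Its percentile was 19.0, 5.89, 74.3 and 76.7 in WT replicates 1 to 4, 41.8, 58.6, 71.8 and 73.6 in P300KO, 76.5, 77.7, 76.3 and 81.5 in TET2KO, and 82.7, 78.9, 74.3 and 80.4 in P300KO_TET2KO. In deposit set 1 it was low in both WT libraries, intermediate in P300KO and high in both Tet2-deficient genotypes, and in set 2 all genotypes lay between 71.8 and 81.5. The fold enrichment of the peak was 2.17 and 2.02 in the first 2 WT libraries and 10.3 and 11.4 in the other 2. Over all libraries TET2KO exceeded WT by 34.0 ± 10.9 points (SE, limma unadjusted p = 0.00811, adjusted p = 0.609). The 2 low WT libraries are also those with the weakest lists, and the part of list strength in this difference was not tested. Hist3h2a, the neighbouring H2A gene, whose region also holds the promoter of Trim17, stayed high, at 95.8, 93.7, 93.6 and 92.3 in WT and 94.2, 94.1, 93.1 and 93.4 in TET2KO.

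**Figure D3:**
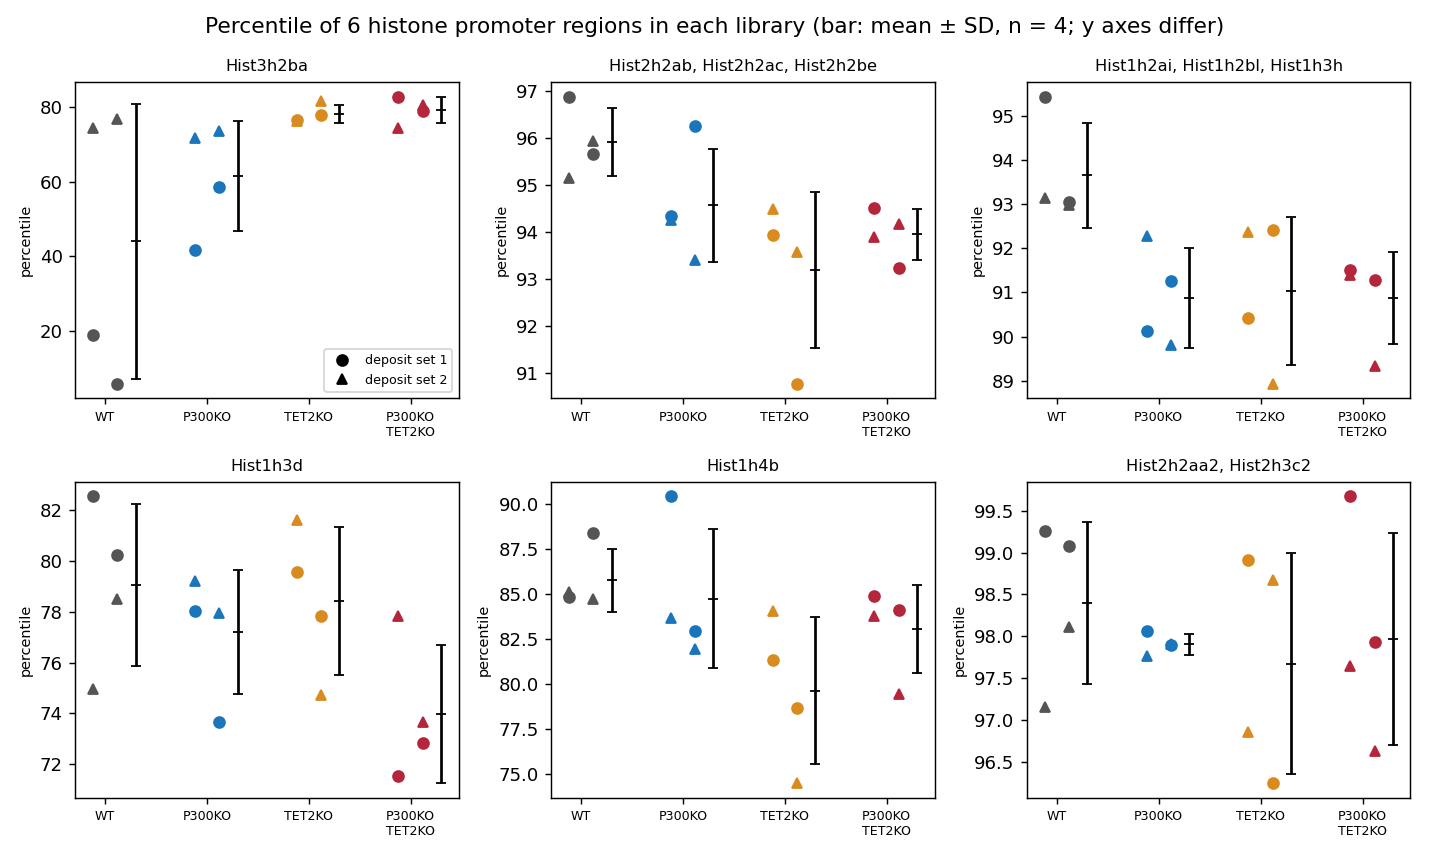
Percentile within the list of 6 histone promoter regions in each library, by genotype. Circles are deposit set 1, triangles are deposit set 2, bars are the mean ± SD with n = 4, and the y axes differ. Hist3h2ba is low in the circles of WT (19.0 and 5.89) and P300KO (41.8 and 58.6) and not in the triangles, while the Hist2h2ab and Hist1h2ai regions lie below every WT library in every TET2KO library, with differences between group means of −2.71 and −2.62 points.

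The fourth comparison asked what Tet2 loss added to p300 loss. No histone region of 48 was called between P300KO_TET2KO and P300KO, against 0.00382% of all, and 3 had an unadjusted p under 0.05, against 6.24%. The 3 include the second Hist4h4 region, which gets no test here either, and the count was 1 without P300KO replicate 2 and 0 without P300KO_TET2KO replicate 1. The median difference was −0.57 points in the histone regions and 0.06 in all, with 34 lower and 14 higher. The histone median was −0.35 without P300KO_TET2KO replicate 2, −0.37 without P300KO replicate 1, −1.05 with the strongest 50000 peaks, −0.24 with 50% cover and −1.70 when ranked among promoter regions. Of the 41 with a peak in all libraries 29 were lower, against 36.5% of all such regions. Ranked among promoter regions alone, 34 were lower and 14 higher, while with a −log10 q of at least 2 the direction turned, with 17 lower and 31 higher and a median of 0.34 points in the histone regions and 1.28 in all. Among the other regions the smallest p belonged to Hist1h2ao with Hist1h2bq and Hist1h4m and to the Hist1h2af and Hist1h3g region. The first was at 93.3, 92.1, 94.8 and 94.5 in P300KO_TET2KO and at 96.0, 96.5, 95.2 and 94.7 in P300KO (difference −1.93 ± 0.763, adjusted p = 0.727, limma), and it has no unique 100-mers at its H2A and H2B starts, as is also true of the Hist1h2ap and Hist1h2br region. The second was at 91.2, 93.1, 93.7 and 93.4 against 93.1, 94.6, 94.9 and 94.5 (difference −1.42 ± 0.625, adjusted p = 0.778, limma). At the RefSeq start of Hist1h1d the values were 82.0, 82.7, 82.7 and 81.0 in P300KO_TET2KO, 87.3, 89.4, 84.8 and 85.0 in P300KO, 84.7, 84.4, 86.9 and 81.8 in TET2KO and 90.03, 87.4, 85.0 and 84.5 in WT. There P300KO_TET2KO lay below every P300KO and WT library and overlapped TET2KO; this gene was singled out after its values were seen. The effect of p300 loss in the TET2KO background minus its effect in the WT background was called in 0 of 48 histone regions and 0% of all, with 0 histone regions at an unadjusted p under 0.05 against 4.26%. The latter count was 3 without P300KO replicate 3, against 5.08% of all, and 3 without TET2KO replicate 3, against 4.42%. With the replicate number as a block it was 1, against 3.68%.

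The measure of strength mattered. When peaks were ranked by fold enrichment in place of −log10 p, histone promoters stood lower in P300KO_TET2KO. The median fold percentile of the 41 histone regions with a peak in all libraries was 74.6, 68.5, 67.1 and 69.2 in P300KO_TET2KO, 80.8, 80.5, 75.8 and 73.4 in TET2KO, 78.1, 83.1, 73.6 and 74.2 in P300KO, and 88.7, 84.3, 72.0 and 71.3 in WT. Within each deposit set both P300KO_TET2KO libraries were below all others. By fold, 10 of 48 histone regions fell in P300KO_TET2KO against TET2KO at an adjusted p under 0.05 (limma), against 6.57% of all regions, and 2 of 48 fell against P300KO, against 4.15%. The 10 included Hist1h2ah with Hist1h2bk, at 93.3, 89.9, 87.4 and 85.6 in P300KO_TET2KO and 95.2, 95.9, 94.0 and 94.4 in TET2KO (difference −5.80 ± 1.08 points (SE), adjusted p = 0.016). They also included Hist3h2a, at 81.9, 75.4, 73.2 and 73.9 against 89.0, 88.3, 80.1 and 80.9 (difference −8.43 ± 1.99, adjusted p = 0.0299, limma). Hist3h2a and the Hist1h2bh and Hist1h3f region were the 2 that also fell against P300KO.

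The fall by fold moved together with values of the whole lists. Of the 41 histone regions 40 were lower by fold in P300KO_TET2KO than in TET2KO, with a median of −7.99 points, and of all 13998 regions with a peak in all libraries 76.4% were lower, with a median of −2.16. The 90th percentile of fold enrichment over a whole list was highest in P300KO_TET2KO within each set, at 13.9, 15.9, 20.3 and 19.2, against 11.2, 11.2, 15.3 and 17.5 in TET2KO and 5.47, 9.10, 17.5 and 16.8 in WT. The fold enrichment of the histone promoters themselves had a median of 9.40, 9.21, 10.8 and 10.5 in P300KO_TET2KO and of 8.44, 8.24, 9.74 and 10.5 in TET2KO. Single regions differed from the median: the raw fold of Hist2h4, 1 of the 10 and picked out after its values were seen, was 11.9 and 11.25 in P300KO_TET2KO replicates 1 and 2 against 10.1 and 9.56 in TET2KO, and 12.7 and 12.4 in replicates 3 and 4 against 14.3 and 14.5. Ranked by fold among promoter regions alone, 0 of 48 were called in this comparison, against 0.0267% of all, and 14 of 48 had an unadjusted p under 0.05, against 11.8% of all. The median difference by that rank was −5.14 points in the histone regions and 0 in all. Against P300KO the same rank called 0 of 48, against 0.0878% of all. The part of list-wide enrichment in the fall was not tested.

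**Figure D4:**
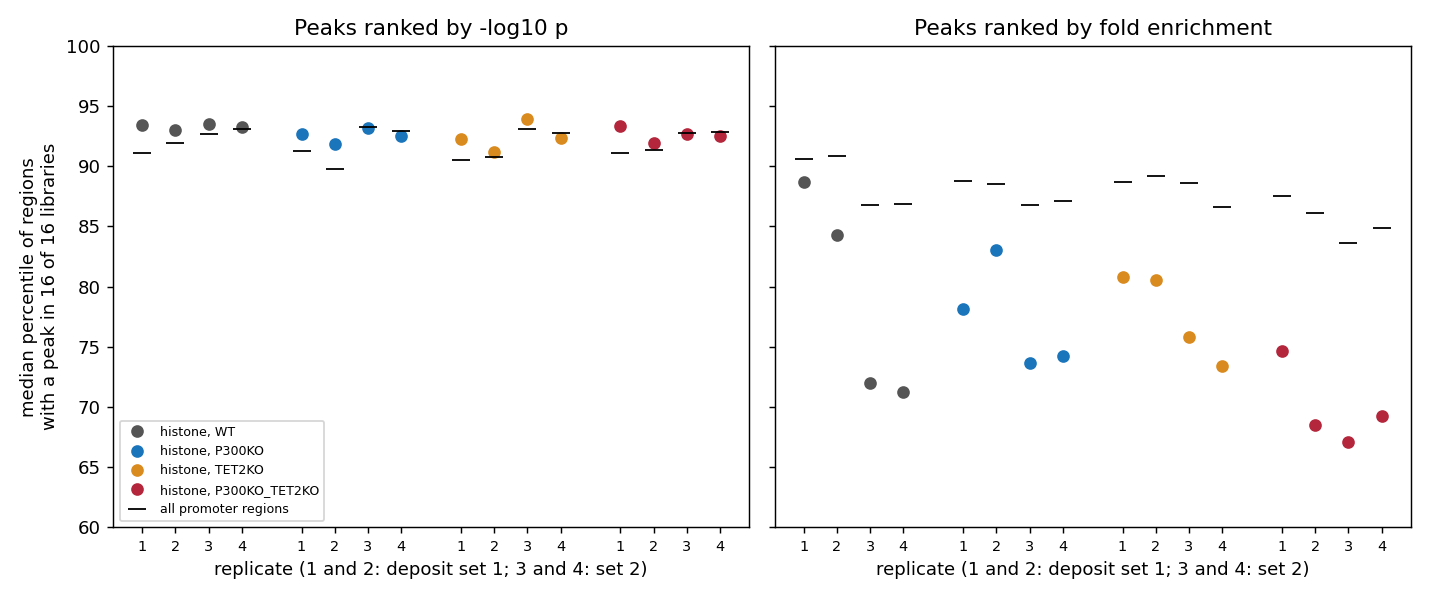
Median percentile of the 41 histone promoter regions with a peak in all libraries (dots) and of all 13998 such promoter regions (dashes), for each library. Peaks were ranked by −log10 p on the left and by fold enrichment on the right. On the left the histone medians lie between 91.2 and 93.9. On the right they run from 67.1 to 88.7, below all promoter regions in every library and lowest in P300KO_TET2KO within each deposit set.

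The genes that regulate histone transcription or process its transcripts were open too. All 29 genes of a list of such factors had a promoter peak in 16 of 16 libraries, with a median of the mean percentiles of 97.7, above the histone genes' own 93.6. Npat stood at 99.3, Casp8ap2, its partner in the histone locus body, at 99.7, Hinfp, which binds H4 promoters, at 99.6, and Slbp at 99.6. The lowest of the 4 was at 98.2 in any library. Of the 45 promoter regions of this list 0 were called in any of the 4 comparisons, with 1, 4, 3 and 2 at an unadjusted p under 0.05 in the order given above, against 4.72%, 9.36%, 7.11% and 6.24% of all regions. All 11 replication-independent histone genes, most of which are expressed throughout the cell cycle, were open in all libraries as well. Their median was 95.2, from H2afv, an H2A.Z gene, at 99.2, and Cenpa, the centromeric H3, at 98.05, to H2afy2, a macroH2A gene, at 67.4. Of their 14 regions 0 were called, with 0, 0, 1 and 2 at an unadjusted p under 0.05 against the same shares of all regions.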

How the data were processed

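ATAC-Seq peak lists of 16 HSPC libraries were used. The authors trimmed reads with cutadapt 1.9.1, aligned them to mm10 with Bowtie2 2.2.6, removed duplicates and called peaks for each library with MACS2 2.1.0, as given in the submitters' processing notes and the study's methods. The deposited lists give, for each summit, the fold enrichment, a ratio to local background in the same library. The −log10 p and −log10 q of a summit, likewise deposited, are the authors' values from MACS2.

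Summits of 1 interval were counted as 1 peak with its highest values. Peaks were ranked within a list by −log10 p, overlapping peaks (by 1 bp or more) were joined across the 16 lists, and a library without a peak in a region was given percentile 0. The percentiles of all 26185 promoter regions were fitted with limma 3.58.1 in R 4.3.3 with the deposit set as a covariate, and p-values were adjusted over all regions. The fit was tested on simulated data with 200 shifted regions among 13998, in the comparison of P300KO_TET2KO with TET2KO: 9.5%, 56% and 70.5% were recovered at shifts of 2, 5 and 10 percentile points. The simulated regions all had a peak in 16 libraries, unlike the 26185 of the real fit. Uniqueness was counted over 100-mers of the genome. Members and gene lists were chosen with earlier results of these data known. Named genes were the highest and lowest member of each class, members without a promoter peak or with one in some libraries, the members of the chromosome 11 and 6 clusters, called members and the 3 regions with the smallest p in each comparison. The alternatives were other promoter windows, peak filters, ranks, starts and covariates, each deposit set alone, and leaving out each library.

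The replicate numbers in the labels were checked as pairs. Deviations from genotype means correlated at 0.149 to 0.521 in all 24 pairs of libraries with the same number, and after removal of the deposit set at −0.152 to 0.0688 with 0 of 24 above 0.1, so the numbers share the deposit set only.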

Additional observations from a re-analysis of the deposited data

Results flagged for a closer look

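In 3 of 76 genotype groups of 4 libraries over 19 histone promoter regions, 1 library stood further from the other 3 than Dixon's 95% limit allows. The 76 include the WT, P300KO and TET2KO groups of the second Hist4h4 region, which were at percentile 0 throughout and could not be tested. Chance puts about 1 in 20 groups past it, so this number is no more than chance gives. Some of the regions were picked by small p in these data, so the comparison with chance is rough. In the region of Hist1h2ai, Hist1h2bl and Hist1h3h, WT replicate 1 was at a percentile of 95.4 while the other WT libraries were between 93.0 and 93.1. In the same region P300KO_TET2KO replicate 4 was at 89.3 while the other libraries of the genotype were between 91.3 and 91.5. In the Hist1h4b region WT replicate 2 was at 88.4 while the others were between 84.7 and 85.1. No difference between the effects of p300 loss in the WT and TET2KO backgrounds passed the test in any histone region.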

How the results depend on the processing

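The number of histone genes with a peak in all libraries stayed within 1.5 times 63 under every alternative tried, and no histone region was called under any of them except by fold rank (10 in P300KO_TET2KO against TET2KO and 2 against P300KO). Fitting the replicate number as a replicate block gave 0 called histone regions in each of the 4 comparisons, as without it. Over all regions the block changed the number called from 3 to 1 in P300KO against WT and from 1 to 0 in P300KO_TET2KO against P300KO. The difference in the mean number of open histone genes, 0 in each comparison, was −0.5 with a 3 kb promoter in both comparisons of P300KO_TET2KO, 0.5 at a −log10 q of at least 2 in both comparisons with WT, and 0.25 in each with the strongest 50000 peaks. The median difference of the histone regions, in the order of the report, became 0.74, 1.11, 0.96 and 0.34 at a −log10 q of at least 2, so that 3 signs turned; the cause was not tested. With the strongest 50000 peaks the medians were −0.13, −0.81, −1.30 and −1.05, and with 50% cover 0.0047, −0.083, −0.14 and −0.24. By fold rank it became −7.49 and −6.15 in P300KO_TET2KO against TET2KO and P300KO and −2.40 in P300KO against WT. By fold rank among promoters, chosen after seeing the data, it became −5.14 and −3.87 in P300KO_TET2KO against TET2KO and P300KO, −0.99 in P300KO against WT and 0.033 in TET2KO against WT. Ranked among promoters the medians were 0, −0.0024, −1.19 and −1.70. In deposit set 1 alone they were 0.57, −0.88, −1.26 and −0.61, and in set 2 alone −0.21, −0.30, −0.0118 and −0.40. Leaving out each library moved the medians from −0.27 to 0.44, from −0.69 to −0.32, from −1.09 to −0.59 and from −0.67 to −0.35. The Hist1h4b difference between P300KO_TET2KO and TET2KO turned to −3.62 by fold rank and −0.50 by fold rank among promoters. The Hist1h2ai differences from WT turned to 45.1 in P300KO and 67.7 in TET2KO when a peak had to cover 50% of its region, since libraries below that cover were then given percentile 0. Starts of RefSeq in place of GENCODE were chosen after seeing the data. In the simulated comparison 9.5% of shifts of 2 points and 56% of 5 points were recovered, so a difference of a few percentile points may have been missed.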
